A study of Homo sapiens with 4 samples.

Results

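The 10 genes described here encode the machinery of antigen presentation by HLA class II molecules: the regulator CIITA, the classical chains HLA-DRA, HLA-DRB1, HLA-DPA1, HLA-DPB1 and HLA-DQA1, the invariant chain CD74, and the peptide-loading chains HLA-DMA, HLA-DMB and HLA-DOA. They were found on the arrays by name: every non-control probe whose gene name in the array files equals a member was kept, which gave 19 probes among the 58185 analysed, for 10 of 43311 gene names. RNA of 2 cell lines was measured on 4 one-colour arrays, 1 array per condition. MDS-L is a human cell line derived from a patient with myelodysplastic syndrome, and MDS-L/CDA is the same line made resistant to 5-azacytidine (AZA) by transduction of the deaminase gene CDA. Each line was cultured with interleukin-3 and exposed for 72 h either to 0.1% DMSO as vehicle or to 1 μM AZA, a cytidine analogue that lowers DNA methylation. The dose is 1 μM in the source names and descriptions while 2 titles give it in mM, and the treatment entries of the MDS-L AZA array and of the MDS-L/CDA vehicle array go against their own titles, source names and descriptions. The groups used here follow the titles and source names. How many clones or transduced pools the MDS-L/CDA line comprised was not given in the sources used here.

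Class II molecules are pairs of an α and a β chain that carry peptides from endosomes to the cell surface, where CD4+ T cells read them. CD74 occupies the groove of the new pair and guides it to endosomes, HLA-DM exchanges the remaining CD74 peptide for antigen, and HLA-DO restrains HLA-DM. CIITA binds no DNA itself. It joins RFX, NF-Y and CREB proteins on a shared promoter module of X and Y boxes. Thereby it turns on most genes of the group together, always in B cells and dendritic cells, and in many other cells after interferon γ.

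The promoters of the members are shown first, because this module is where CIITA acts. RefSeq promoter windows on GRCh38.p14, 250 bases before to 50 bases after a start, were held for 8 members in 9 windows (HLA-DPA1 has 2 starts). CIITA and HLA-DRA had no entry. The core of the X1 box, searched as AGNNACNGA on both strands, was found in 6 of the 9 windows, against 15.3% of all 35116 windows. The Y box letters CTGATTGG were found in 2 of 9 against 3.97%, and their inner part ATTGG, which overlaps them, in 7 of 9 against 34.6%. The windows of HLA-DMA and HLA-DRB1 held both X1 and CTGATTGG, as did 0.698% of all windows. Below, the stretch from 10 bases before the X1 core to the start is printed 5′ to 3′ on the minus strand, with the letters of X1 and of CTGATTGG in capitals. X1 began 113 bases before the start in HLA-DMA, 79 in HLA-DRB1 and 99 in the HLA-DPA1 window shown.
HLA-DMA, chr6:32953098-32953220: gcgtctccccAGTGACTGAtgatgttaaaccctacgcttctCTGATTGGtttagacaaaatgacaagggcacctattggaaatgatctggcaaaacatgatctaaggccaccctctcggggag
HLA-DRB1, chr6:32589849-32589937: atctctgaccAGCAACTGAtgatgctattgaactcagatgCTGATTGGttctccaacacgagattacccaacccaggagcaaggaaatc
HLA-DPA1, chr6:33073650-33073758: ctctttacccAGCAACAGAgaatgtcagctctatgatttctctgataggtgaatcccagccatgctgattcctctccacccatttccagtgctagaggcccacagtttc

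AZA is built into nucleic acid and traps the DNA methyltransferase DNMT1, which maintains methylation of cytosines in CG pairs. The member windows held few of them: 1 in HLA-DRB1 and in HLA-DQA1, 2 in HLA-DPB1, 3 in CD74 and in HLA-DMA, 4 in HLA-DMB and 6 in HLA-DOA, where the median of all windows was 14. HLA-DPA1 differed between its starts, with 4 CG pairs in the window printed above and 27 in the other. Methylation was not measured on these arrays.

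The arrays gave 1 intensity per probe. Values below are that intensity as a multiple of the 75th percentile of all probes on the same array, which lay between 37.3 and 52.9 intensity units, and are called scaled signal. A probe counted as measured where the scanner software marked it as well above background, which held for 32.6% to 36.5% of probes, and no spot was saturated. The lowest measured scaled signal was 0.190 on both MDS-L arrays, 0.272 on the MDS-L/CDA vehicle array and 0.296 on the MDS-L/CDA AZA array, so dim transcripts were easier to measure in MDS-L. With 1 array per condition there is no test between conditions, and a change means here a ratio of at least 2-fold. Where 1 of the 2 arrays was not well above background, the ratio is a bound against that array's lowest measured signal or the probe's own signal, whichever was higher. As a guide to error, probes that the array carries 10 times were used: from their spread, 2 single spots of equal RNA would differ by up to 1.73-fold in 95% of pairs on the MDS-L arrays and up to 2.05-fold on the MDS-L/CDA arrays. This repeat-spot limit covers neither the hybridisation nor the culture. Ratios are taken between arrays for the same probe, and a higher signal of 1 probe than of another says nothing of the transcripts' amounts. In bulk RNA, fewer cells with a transcript and less transcript per cell cannot be told apart.

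The lines were checked against markers. The progenitor and myeloid genes CD34, CD33 and ANPEP were measured on all 4 arrays, while MPO was on none, KIT was on all 4 by 1 of 3 probes and SPN on the MDS-L arrays alone. Of the B cell genes, CD79A and CD79B were measured on all 4 arrays and MS4A1 and PAX5 on none, and of the dendritic cell genes CD1C, CLEC10A, LAMP3 and XCR1 were on none, FCER1A was on all 4 and CLEC9A on 1. Of the 4 monocyte and macrophage genes on the array CD14 and CSF1R were measured somewhere, and of the 5 T and NK cell genes CD2, CD3D and NKG7. The 1 probe for CDA had no signal well above background, with 0.105 and 0.0943 in MDS-L without and with AZA, and 0.110 and 0.146 in MDS-L/CDA likewise. Whether the transduced sequence contains this probe's target was not given in the sources used here, so the probe does not check the label of the resistant line. Every series of 4 values below keeps this order: MDS-L without and with AZA, then MDS-L/CDA without and with AZA.

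Of the 19 member probes, 14 were well above background on at least 1 array and 8 on all 4. By array the count was 13 and 12 in MDS-L without and with AZA, and 8 and 10 in MDS-L/CDA. Thus 8 of the 10 genes were measured somewhere and 5 (CIITA, HLA-DRA, HLA-DRB1, HLA-DPB1 and HLA-DMA) everywhere. The genes without any measured signal were CD74 and HLA-DOA.

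**Figure D1:**
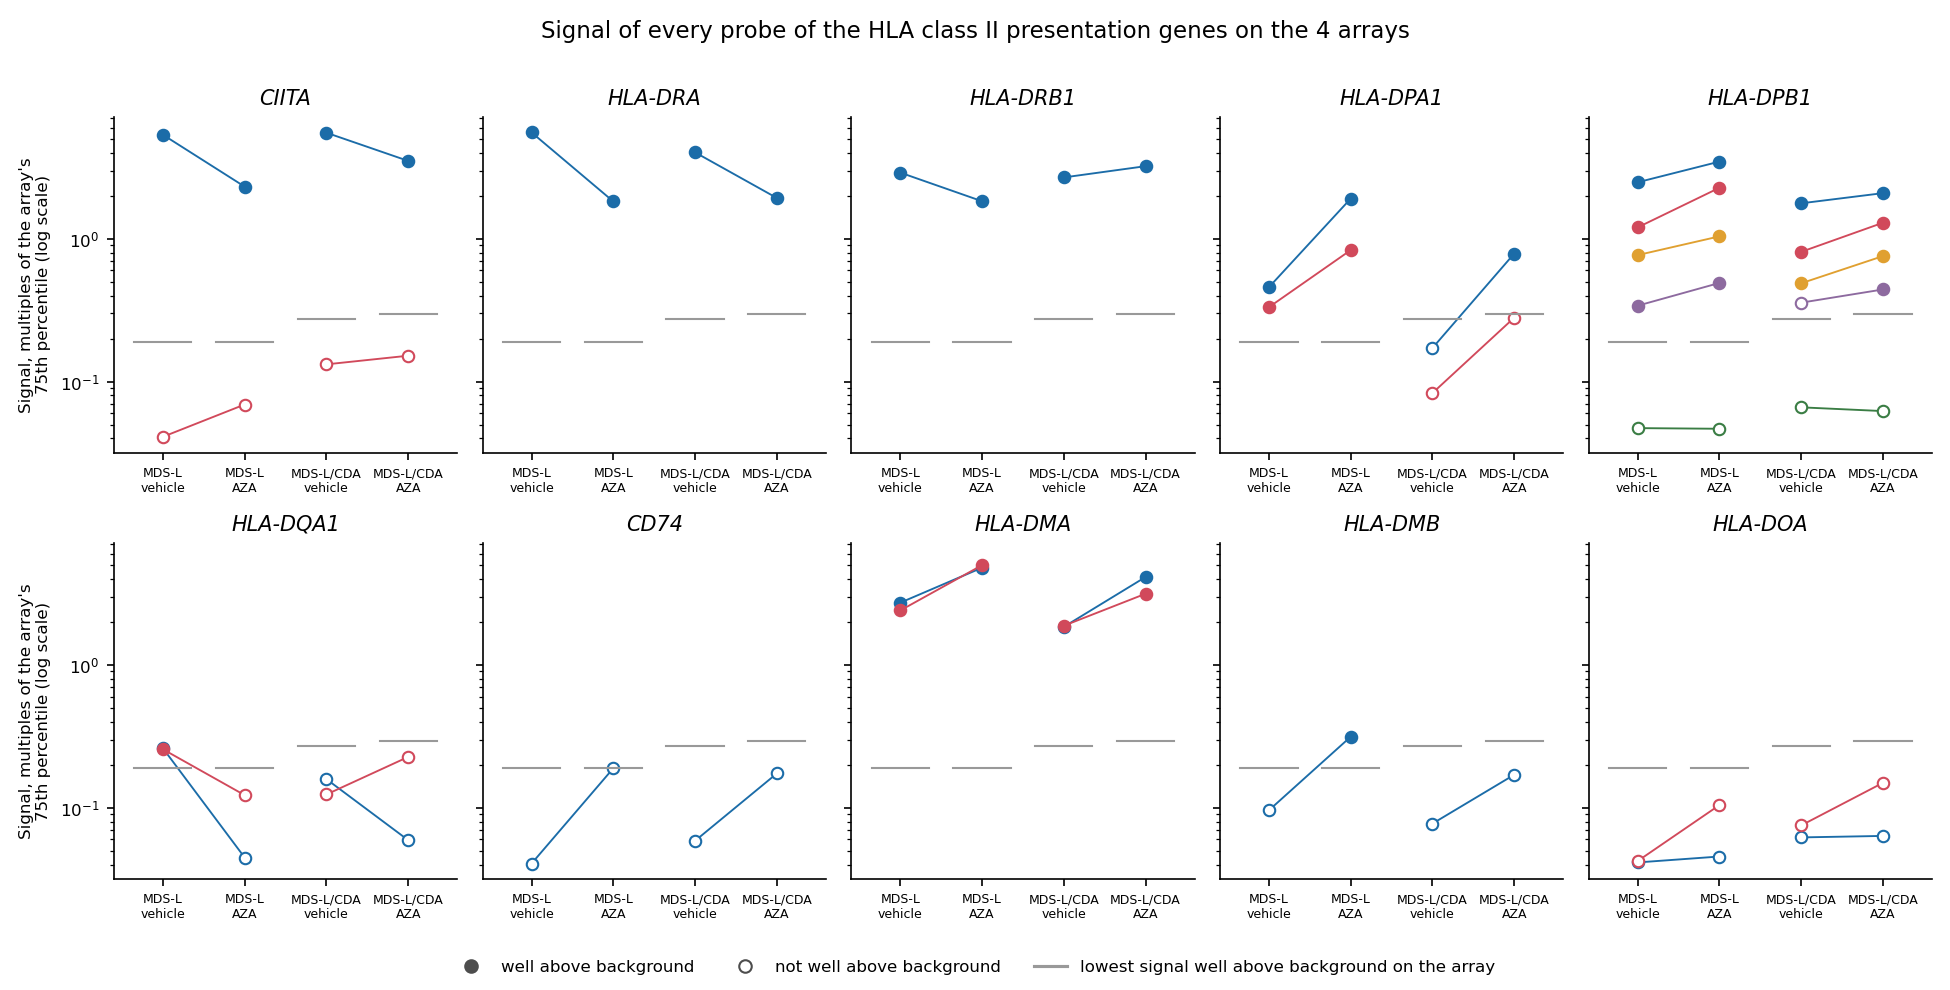
Scaled signal (multiples of the array's 75th percentile, log axis) of all 19 probes of the 10 genes on the 4 arrays, 1 colour per probe; filled points are well above background, open points are not, and grey bars mark the lowest signal well above background on each array. CIITA and HLA-DRA lie lower with AZA in both lines, HLA-DPA1 and HLA-DMA lie higher, and CD74 and HLA-DOA have open points on all 4.

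The probes are 60 bases long. The sequences of 5 are given to show what they read: CIITA, HLA-DPA1 and HLA-DMA, which passed 2-fold with AZA, HLA-DRB1, which also matches a related gene, and CD74, which had no measured signal. They are in lower case since no part is marked, with the first 30 bases for CIITA and HLA-DPA1 and all 60 for the others.
CIITA, probe A_32_P209960, hg19 chr16:11018667-11018726: gcttcatttcctgtgtcttttttcactaca
HLA-DRB1, probe A_24_P343233, hg19 chr6:32548524-32548583: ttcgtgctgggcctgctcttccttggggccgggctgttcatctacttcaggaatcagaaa
HLA-DPA1, probe A_23_P30913, hg19 chr6:33032848-33032907: ctaatatggagattatcctttcattgagcc
HLA-DMA, probe A_24_P50245, hg19 chr6:32917418-32917477: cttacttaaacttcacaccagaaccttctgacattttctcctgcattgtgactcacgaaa
CD74, probe A_23_P70095, hg19 chr5:149792222-149792281: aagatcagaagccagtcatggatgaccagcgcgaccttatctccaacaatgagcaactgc

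The first question was how these genes stood with and without AZA in MDS-L, the line that responds to the drug. They moved in both directions. CIITA, by the 1 of its 2 probes that was measured, and HLA-DRA fell more than 2-fold. In contrast, HLA-DPA1 by both of its probes and HLA-DMA by 1 of 2 probes rose more than 2-fold. Among the 14 member probes that could be judged, 3 were at least 2-fold higher and 2 at least 2-fold lower. Over all 22257 probes that could be judged, 6.54% were at least 2-fold higher and 6.15% at least 2-fold lower. The median log2 ratio of the 11 member probes measured on both arrays was 0.53, with a range from -1.61 to 2.06, where the median of all 19448 such probes was -0.15. Of these 11, which read 6 genes, 8 had a ratio above 1 and 3 below it. The 8 belong to HLA-DPA1, HLA-DPB1 and HLA-DMA, and the 3 to CIITA, HLA-DRA and HLA-DRB1. Genes with several probes thus weigh more in this count and in the median.

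CIITA, the master regulator, has 2 probes. Probe A_32_P209960 gave scaled signals of 5.35, 2.32, 5.52 and 3.51. The vehicle values of the lines were alike, and in each line the AZA value lay below the vehicle value. The signal with AZA was 2.31-fold lower in MDS-L (log2 ratio -1.21, a value that 3.53% of measured probes reached or passed) and 1.57-fold lower in MDS-L/CDA (log2 -0.66), which is within the repeat-spot limit. The other probe, A_33_P3324394 at chr16:10996598-10996657 on hg19, stayed at background on all 4 arrays.

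HLA-DRA, the single α chain of all HLA-DR molecules, is read by 1 probe, A_32_P87697 at chr6:32412448-32412507 on hg19. Its signals were 5.55, 1.82, 4.02 and 1.93. With AZA it was 3.04-fold lower in MDS-L (log2 -1.61) and 2.09-fold lower in MDS-L/CDA (log2 -1.06), just past the repeat-spot limit of the latter pair. In MDS-L 1.25% of the measured probes had a ratio as low, and in MDS-L/CDA 2.43%.

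The HLA-DRB1 probe, for a β partner of HLA-DRA, gave signals of 2.90, 1.83, 2.69 and 3.22. Here the AZA array was below the vehicle array in MDS-L, by 1.59-fold, and above it in MDS-L/CDA, by 1.20-fold. Both ratios were under 2-fold and within the repeat-spot limits. The array's annotation lists an HLA-DRB3 transcript among those this probe matches, so its signal cannot be given to HLA-DRB1 alone. HLA-DRB3, a closely related β chain, has a probe of its own with signals of 1.99, 2.13, 2.94 and 3.04.

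HLA-DPA1, the α chain of HLA-DP, had the largest ratio of the measured members with AZA. Probe A_23_P30913 gave 0.458, 1.91, 0.172 and 0.788, of which the MDS-L/CDA vehicle value was not well above background. With AZA it was 4.17-fold higher in MDS-L (log2 2.06, reached by 0.936% of measured probes) and at least 2.89-fold higher in MDS-L/CDA. The other probe, A_33_P3234277 at chr6:33036886-33036945, gave 0.332 and 0.833 in MDS-L, a 2.51-fold rise. In MDS-L/CDA neither array measured it, at 0.0832 and 0.280, and it has no ratio there.

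HLA-DPB1, the β partner, has 5 probes, of which 4 were measured on at least 3 arrays. Probe A_23_P258769 at chr6:33054359-33054418, gave 2.48, 3.47, 1.77 and 2.09. The probe A_24_P166443, whose hg19 coordinates chr6:33052981-33053587 span more than its length and so cross a splice junction, gave 1.20, 2.27, 0.809 and 1.29. The probe A_33_P3271651 at chr6:33052784-33052843 gave 0.768, 1.04, 0.488 and 0.756. Each was higher with AZA in both lines, and none by 2-fold: the 4 probes measured in MDS-L had ratios from 1.35-fold to 1.89-fold. In MDS-L/CDA the 3 probes measured on both arrays had ratios of 1.18-fold, 1.60-fold and 1.55-fold in the same order. The fourth probe, A_33_P3271635 at chr6:33048489-33048537, gave 0.340, 0.491, 0.357 and 0.442, of which the MDS-L/CDA vehicle value was not well above background. The fifth, A_33_P3271634 at chr6:33048209-33048268, was measured on no array.

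HLA-DQA1, the α chain of HLA-DQ, was measured on the MDS-L vehicle array only. Its probes A_33_P3273884 and A_33_P3293049 gave 0.261 and 0.257 there, close above the floor of 0.190. With AZA they were not well above background, which makes them at least 1.37-fold and at least 1.35-fold lower. Neither MDS-L/CDA array measured either probe. The probes lie at chr6:32609287-32609758, across a junction, and at chr6:32610501-32610560.

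CD74, the invariant chain, is read by 1 probe, printed above, which none of the arrays measured. Its signals of 0.0407, 0.189, 0.0587 and 0.174 all lay under the lowest measured signal of their array, so they have no order and no ratio is given. The values limit only what this probe could detect.

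HLA-DMA, the α chain of the peptide exchanger HLA-DM, was measured by both probes on all 4 arrays. Probe A_23_P42306 at chr6:32916566-32916625 gave 2.72, 4.79, 1.85 and 4.12. Probe A_24_P50245 gave 2.40, 4.99, 1.88 and 3.15. By both probes the AZA value lay above the vehicle value of the same line. In MDS-L the ratio was 1.76-fold by the former and 2.07-fold by the latter, both past the repeat-spot limit. In MDS-L/CDA the ratios were 2.23-fold and 1.68-fold, the latter within that limit.

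HLA-DMB, the β chain of HLA-DM, was well above background only in MDS-L with AZA. Probe A_32_P351968 at chr6:32902504-32902563 gave 0.0961, 0.314, 0.0775 and 0.170, so its signal was at least 1.66-fold higher with AZA in MDS-L and has no ratio in MDS-L/CDA. HLA-DOA, which restrains HLA-DM, was measured by neither of its probes, with signals from 0.0414 to 0.149.

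**Figure D2:**
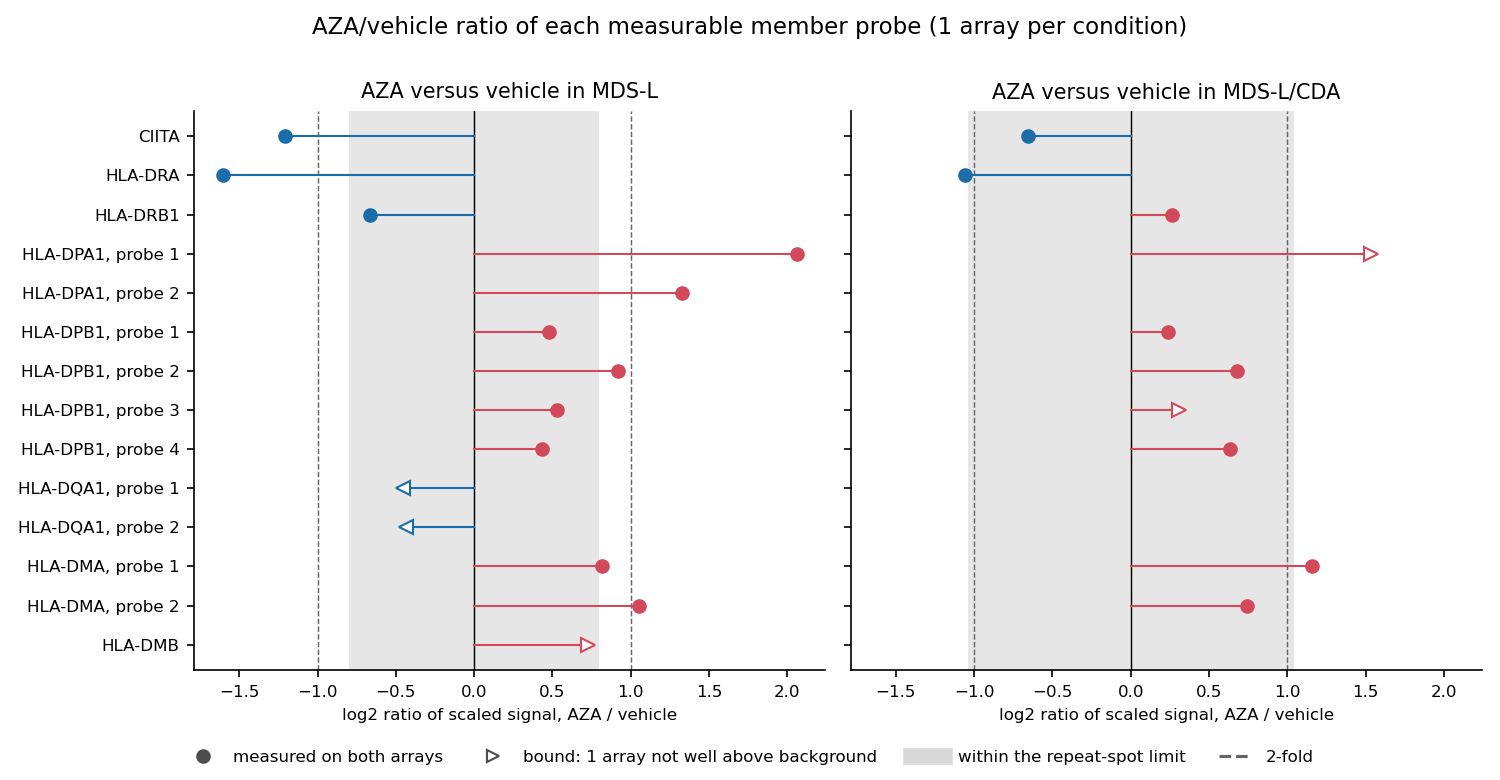
log2 ratio of scaled signal, AZA over vehicle, of each member probe that could be judged, in MDS-L (left) and MDS-L/CDA (right); circles were measured on both arrays, open triangles are bounds, the grey band is the repeat-spot limit and dashed lines mark 2-fold. Probes are numbered in the order of their identifiers. CIITA, HLA-DRA, HLA-DRB1 and HLA-DQA1 lie to the left in MDS-L, with the HLA-DP and HLA-DM chains to the right, and HLA-DRB1 changes side in MDS-L/CDA.

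The same comparison was made in MDS-L/CDA, the resistant line. HLA-DRA was the member past 2-fold downward, and HLA-DPA1 and HLA-DMA were those past 2-fold upward. For HLA-DPA1 this was a bound from 1 of its 2 probes. The HLA-DMA probe past 2-fold was not the one past it in MDS-L. In all, 2 of the 10 judged member probes were at least 2-fold higher, where 2.48% of all 19856 judged probes were, and 1 was at least 2-fold lower, where 3.20% were. The median log2 ratio of the 8 member probes measured on both arrays, which read 5 genes, was 0.45, from -1.06 to 1.16. That of all 18080 such probes was 0.01.

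The 8 member probes measured on all 4 arrays allow the responses of the lines to be set side by side. MDS-L minus MDS-L/CDA, the log2 response differed by -0.93 for HLA-DRB1, -0.55 for CIITA, -0.54 for HLA-DRA, -0.35 and 0.31 for the HLA-DMA probes, and between -0.20 and 0.24 for the 3 HLA-DPB1 probes. None passed the repeat-spot limit of 1.30 for a difference of this kind. The median over the 8 probes was -0.27, beside -0.16 over all 17809 probes measured on all arrays. HLA-DRB1 was the member whose ratios lay on opposite sides of 1 in the lines, which held for 39.0% of the 17809 probes. The difference between lines was not tested, for want of replicates.

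**Figure D3:**
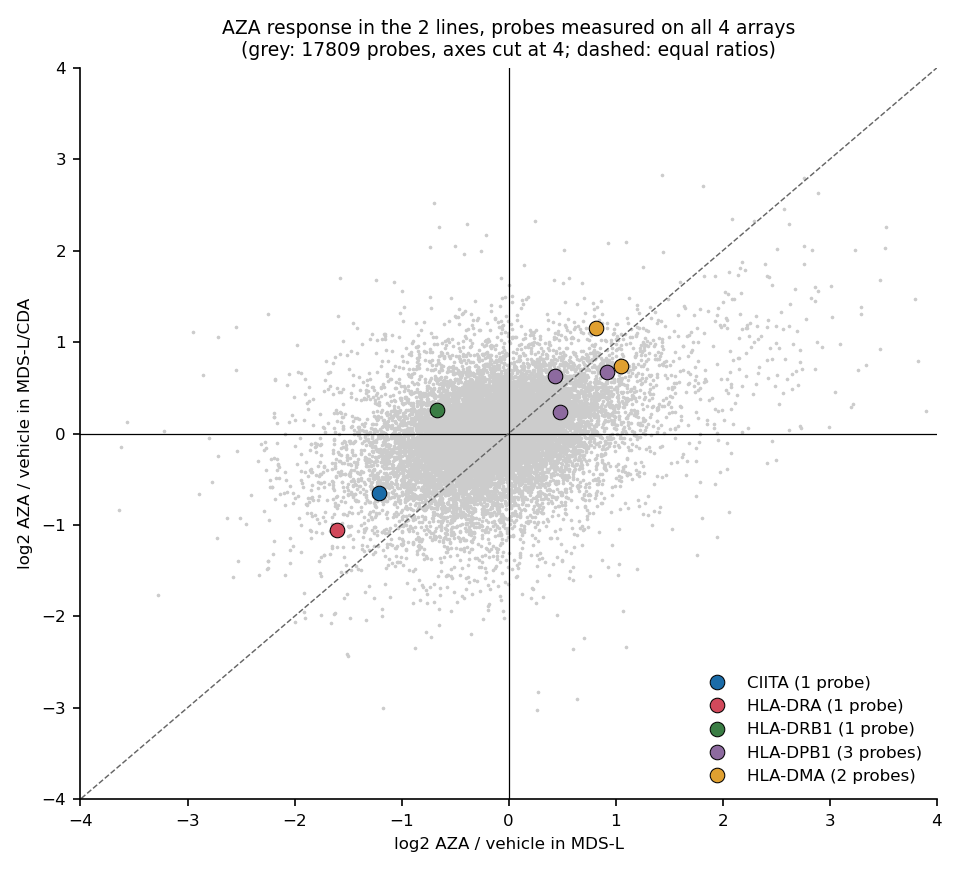
log2 AZA/vehicle ratio in MDS-L (x axis) against that in MDS-L/CDA (y axis) for the 17809 probes measured on all 4 arrays (grey) and the 8 member probes among them (coloured by gene); the dashed line marks equal ratios and the axes end at 4. CIITA and HLA-DRA lie at the lower left, the HLA-DMA and HLA-DPB1 probes at the upper right, and HLA-DRB1 at the upper left.

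The lines were then compared with each other under the same treatment. With vehicle, no member probe of the 10 judged differed by 2-fold, where 2.16% of all judged probes were at least 2-fold higher in MDS-L/CDA and 2.81% at least 2-fold lower. Of the 8 measured member probes, which read 5 genes, 7 were lower in MDS-L/CDA, with several of these from HLA-DPB1 and HLA-DMA. The median log2 ratio of the 8 was -0.48, beside 0.09 for all 18630 measured probes. None passed the repeat-spot limit of 1.84-fold. CIITA was the exception, with a log2 ratio of 0.05, and 44.7% of all measured probes lay at or below that value. HLA-DPA1 had the lowest bound, at least 1.68-fold lower in MDS-L/CDA by probe A_23_P30913.

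With AZA, both HLA-DPA1 probes were more than 2-fold lower in MDS-L/CDA than in MDS-L, by 2.42-fold for A_23_P30913 and by at least 2.82-fold for A_33_P3234277. They were the 2 of 12 judged member probes past 2-fold downward, where 5.35% of all judged probes were, and 0 were past it upward, where 5.90% were. HLA-DRB1 and CIITA lay the other way without reaching 2-fold, 1.76-fold and 1.51-fold higher in MDS-L/CDA. The median log2 ratio of the 10 measured member probes, which read 6 genes, was -0.34, beside 0.23 for all 18584.

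Direction relative to the rest of the array was compared over 8 ways of processing. In MDS-L the CIITA, HLA-DRA and HLA-DRB1 probes lay below the median of all measured probes under 8 of 8. The 2 HLA-DPA1, 4 HLA-DPB1 and 2 HLA-DMA probes lay above it under 8 of 8. Dividing an array by a constant cannot change this position, so the 8 ways are not separate checks of it. The HLA-DMB bound lay above the median under 8 of 8. The HLA-DQA1 bounds lay below it under 8 of 8 for A_33_P3273884 and 7 of 8 for A_33_P3293049. A bound on the wrong side of 0 was not kept, so the sign of these bounds was set in advance. The sign of the ratio itself was less stable. Scaling to the median of all probes turned 3 of the 4 HLA-DPB1 ratios in MDS-L below 1 (log2 -0.06, -0.01 and -0.11), because that scaling moved the median of all measured probes from -0.15 to -0.69. At least 2-fold higher calls then made up 10.5% of all calls in MDS-L instead of 51.5%, and 69.6% with the 75th percentile taken over detected probes. In MDS-L/CDA the higher share was 43.6%, and 27.1% with no scaling. Background correction by normexp, which pulls low signals together, left 1 of the 5 member calls in MDS-L (HLA-DRA, log2 -1.19) and 0 of the 3 in MDS-L/CDA.

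**Figure D4:**
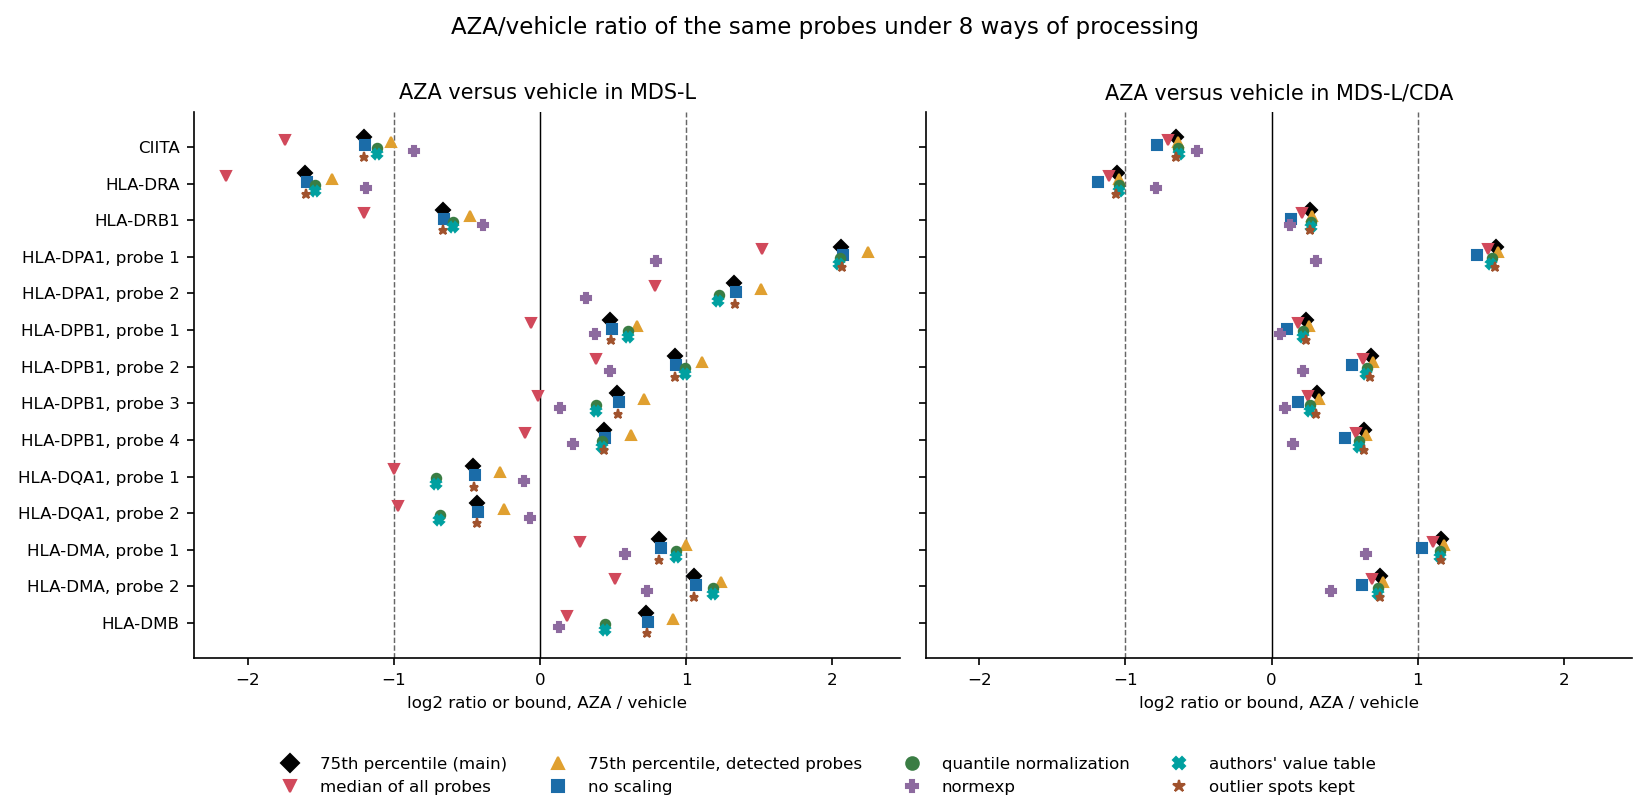
log2 AZA/vehicle ratio or bound of each judged member probe in MDS-L (left) and MDS-L/CDA (right) under 8 ways of processing, 1 symbol per way; dashed lines mark 2-fold. HLA-DRA and CIITA stay left of 0 and HLA-DPA1 and HLA-DMA right of it throughout, while 3 HLA-DPB1 probes cross 0 in MDS-L with median scaling. The HLA-DPA1 value in MDS-L/CDA is a bound, so its side of 0 was set in advance.

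The genes around these members were taken from a list of 45. In MDS-L 45 of its 63 probes could be judged with AZA. Of these 2 were at least 2-fold higher, beside 6.54% of all judged probes, and 1 lower, beside 6.15%. The median log2 ratio of the measured ones was -0.05, beside -0.15 for all. For MDS-L/CDA 1 of 43 was higher, beside 2.48%, and 2 lower, beside 3.20%, with a median of 0.13 beside 0.01. Between the lines 1 of 43 probes was lower in MDS-L/CDA with vehicle, beside 2.81%, and 3 of 45 with AZA, beside 5.35%. In either, 0 were higher, beside 2.16% and 5.90%.

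Other class II genes were mostly not seen. Of 8, HLA-DQA2, HLA-DQB1, HLA-DQB2, HLA-DRB5 and HLA-DRB6 were measured on no array, so that neither the β chain of HLA-DQ nor, outside MDS-L vehicle, its α chain had a measured signal. HLA-DOB, the partner of HLA-DOA, was measured throughout at 12.7, 8.04, 16.8 and 14.4, HLA-DRB3 as given above, and HLA-DRB4 at 0.569, 0.633, 0.558 and 0.877. None of these 3 changed by 2-fold in any comparison.

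The 9 partners of CIITA at the promoter were all measured. The RFX subunits RFX5, RFXANK and RFXAP and the NF-Y subunits NFYA, NFYB and NFYC stayed under 2-fold in all 4 comparisons. CREB1 passed 2-fold by 1 of its 3 probes, with signals of 3.37, 0.710, 0.461 and 1.14, which is lower with AZA in MDS-L and higher with AZA in MDS-L/CDA, while its other probes did not. It was also the gene that differed between lines with vehicle. CREBBP, a histone acetyltransferase that CIITA recruits, gave 1.80, 1.25, 1.08 and 0.361 and was past 2-fold downward with AZA in MDS-L/CDA.

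In the interferon γ axis above CIITA, IFNG itself and IRF8 were measured on no array. The receptor chains IFNGR1 and IFNGR2, the kinases JAK1 and JAK2, and IRF1, SOCS1 and SPI1 were measured on all 4, and none of these passed 2-fold in any of the 4 comparisons. IRF1, which acts at the CIITA promoter, gave 1.08, 1.04, 1.97 and 1.91, so its AZA and vehicle values were close in each line.

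Of 9 endosomal enzymes, the proteases CTSS and LGMN, which trim CD74 and antigen, were measured on no array. The proteases CTSB, CTSD, CTSH, CTSL and SPPL2A and the thiol reductase IFI30 stayed under 2-fold. CTSZ passed it by 1 of 2 probes, at 7.79, 5.48, 5.85 and 1.76, downward with AZA in MDS-L/CDA. With AZA, the 3 probes lower in MDS-L/CDA than in MDS-L were this one and those of CREBBP and CD86. Of the 4 negative regulators, LAG3, a ligand of class II, was measured with AZA in MDS-L alone (0.0994, 0.564, 0.163 and 0.183), at least 2.97-fold above vehicle. PRDM1 and MARCH1 were measured on no array.

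The costimulatory molecules act beside class II on the T cell. CD86 gave 1.25, 5.67, 1.49 and 2.14, a 4.55-fold rise with AZA in MDS-L and a 1.43-fold ratio in MDS-L/CDA. CD40, CD58 and ICAM1 stayed under 2-fold, and CD80 was measured on no array.

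Markers of other blood cells moved on the same arrays. With AZA in MDS-L, FCER1A rose from 7.34 to 41.8 and the KIT probe measured on all 4 arrays from 0.503 to 23.8, and CD3D was at 4.47 where vehicle was not measured. In MDS-L/CDA, FCER1A rose from 3.56 to 14.5 and that KIT probe from 0.346 to 1.24. The monocyte gene CSF1R gave 0.182, 0.922, 0.0649 and 0.454, measured on the AZA arrays alone. Other markers of these lists went the other way in MDS-L. The monocyte gene CD14 gave 0.353, 0.236, 0.104 and 0.530, of which the MDS-L/CDA vehicle value was not well above background. The T and NK cell gene NKG7 gave 0.766, 0.345, 0.612 and 1.25, which is lower with AZA in MDS-L and higher with AZA in MDS-L/CDA. The summed signal of the 6 dendritic cell probes, of which 4 were at background on all arrays, was 7.60, 42.4, 3.88 and 14.9. Nearly all of it was FCER1A, at 7.34, 41.8, 3.56 and 14.5, so the sum does not describe the other genes of that list. The B cell genes CD79A and CD79B stayed under 2-fold in both lines. Their part in the class II values was not tested.

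The genes whose pattern over the 4 arrays was nearest to that of CIITA, taken as reference because its probe had the highest mean log2 signal of the member probes measured on all 4 arrays, were PXYLP1, SORD, BCR, TMEM41A and the small nucleolar RNA SNORD88C. Nearness was the Euclidean distance of the 4 log2 signals after centring each probe, and these 5 lay between 0.0301 and 0.0902. By the same measure HLA-DRA lay at 0.652, farther than 14.3% of the 17801 other probes, and HLA-DRB1 at 0.754. The 3 HLA-DPB1 and 2 HLA-DMA probes lay at 1.64 to 2.06, farther than 92.2% to 97.2% of them. With 4 arrays such closeness is easily met, since 195 probes lay within 0.3.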

How the data were processed

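Expression in 2 human cell lines with and without AZA was measured on 4 one-colour (Cy3) Agilent arrays, 1 per condition. The authors deposited Feature Extraction 10.7.1.1 scanner files, in which the processed signal is a background-subtracted intensity, and a table of intensity values whose 4 columns have the same distribution within 0.0391 on the log2 scale, as after quantile normalization. The table keeps the probe order of the scanner values (lowest correlation 0.999), while its exact method and any centring were not given in the sources used here. Probe positions are those of the array design on hg19, and no exon or UTR was assigned. The study's own cut-offs and gene lists were not used.

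Control and outlier spots were left out (16 probes had no other spot), spots of 1 probe were averaged on the log2 scale, and each array was divided by its 75th percentile. The saturation and well-above-background flags are those of the software. Members, pathway and marker lists were chosen with earlier results of these data known. All member probes are named, pathway genes where a probe passed 2-fold or a role needed it, markers as counts with the measured ones, and the 5 genes nearest to the member probe of highest mean signal. Without replicates no test across conditions was run, and the number of arrays limits precision. The repeat-spot spread came from 40 to 59 probes per array. Alternatives were 7 other normalizations (normexp with limma 3.58.1 in R 4.3.3, offset 50), filters, a fold of 1.5 and 1 probe a gene. The ratio script, in Python 3.11.15, was tested on simulated data. Promoters were searched in RefSeq windows of 300 bases. Some list genes and sequences are not reported here.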

Additional observations from a re-analysis of the deposited data

Results flagged for a closer look

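HLA-DRB1 drew attention because its AZA/vehicle ratio pointed to opposite sides in the lines, with log2 ratios of -0.67 in MDS-L and 0.26 in MDS-L/CDA, a difference of -0.93. The difference was not tested, because each condition had 1 array. It lies within the repeat-spot limit of 1.30, and 39.0% of all probes measured on all arrays also pointed to opposite sides. Both signs held under the 8 ways of processing, from -1.21 to -0.39 in MDS-L and from 0.13 to 0.28 in MDS-L/CDA. The probe also matches HLA-DRB3.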

How the results depend on the processing

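No paired analysis was possible because each group had 1 array. Of the counts and medians over the members, 53 values under an alternative stayed close to the main value and 19 moved. Scaling to the median of all probes gave a median log2 ratio of -0.0125 with AZA in MDS-L and, between lines with vehicle, -0.9995 and 5 probes past 2-fold instead of 0. Without scaling that count was 2, and between lines with AZA the count was 5 and the median -0.84. Normexp left 1 probe with AZA in MDS-L, 0 in MDS-L/CDA and 0 between lines with AZA. With no filter on dim signals the counts were 10 in MDS-L, 7 in MDS-L/CDA and 4 between lines with vehicle. A fold of 1.5 gave 9, 7, 2 and, between lines with AZA, 7. With 1 probe a gene the counts were 3 in MDS-L and 1 between lines with AZA, and 1 there when both arrays had to be above background. These last settings change the count by how many probes they admit, and for the others the cause was not tested. Without scaling, the median of all measured probes went from 0.09 to -0.27 between lines with vehicle and from 0.23 to -0.27 with AZA, and the share of higher among all calls from 43.4% to 7.39% and from 52.4% to 7.57%. For each gene's probe of highest mean signal, 159 ratios stayed close, 27 moved and none of those past 2-fold reversed. Among these, the HLA-DPA1 value with AZA in MDS-L/CDA is a bound and could not reverse. The dim probes of CD74, HLA-DOA, HLA-DMB and HLA-DQA1 limit what can be said of these genes, more so on the MDS-L/CDA arrays.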
